A study of Mus musculus with 92 samples.

Results

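Apoe, Trem2, Tyrobp, Lpl, Cst7, Itgax, Spp1 and Axl are disease-associated microglia genes, taken here together with Apoe. They were picked by name from the deposited expression table, with no measured value in the rule, and all 8 are among its 29956 named genes.

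The study compared ER-Hoxb8 cells with primary marrow cells as replacements for microglia, and used the same cells to follow the loss of Adar1, an RNA-editing enzyme mutated in Aicardi-Goutières syndrome. ER-Hoxb8 cells are mouse marrow progenitors held in an immature, dividing state by an estrogen-regulated Hoxb8 transgene, and they mature into macrophages once estrogen is withdrawn. All 92 libraries are bulk RNA-seq from mouse cells.

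Primary cells from wild-type FVB mice gave BM progenitors (n = 3), BM monocytes (n = 3) and BMD macrophages (bone marrow-derived, 7 days in vitro, n = 3). Cas9 het ER-Hoxb8 cells from FVB Cas9 mice gave ER-Hoxb8 progenitors (n = 3), ER-Hoxb8 4div cells (4 days in vitro, n = 3) and ER-Hoxb8 macrophages (7 days in vitro, n = 3). The progenitor lines were held in beta-estradiol and GM-CSF, and M-CSF drove differentiation. Microglia-like cells (MLCs) are wild-type marrow cells (BMD MLCs, n = 6) or ER-Hoxb8 cells (ER-Hoxb8 MLCs, n = 6) that were injected into Csf1r KO brains, which lack microglia of their own, and sorted back out. The ER-Hoxb8 MLCs carry the genotype label WT, unlike the Cas9 het macrophages they are set beside, and their library names read GFPHox for replicates 1 to 3 and WTHox for replicates 4 to 6. Microglia (n = 9) came from uninjected wild-type FVB brains, and replicates 8 and 9 have library names with YSWT. Sorted cells were lysed in TRIzol before a column kit and cultured cells went through a column kit alone, so brain against culture cannot be told apart from the extraction method. The labels give no age of the mice, time in the brain or number of animals behind a library, so each error describes the spread between samples.

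Knockout lines came from Cas9 het ER-Hoxb8 cells given Adar1 sgRNA 1, Adar1 sgRNA 2 or a non-targeting control guide (NTC). Progenitors (n = 3 for each guide) and macrophages after 7 days in vitro were sequenced, the latter with n = 3 for NTC, n = 3 for sgRNA 1 and n = 5 for sgRNA 2. NTC and sgRNA 1 macrophages were also grown for 7 days with baricitinib, an inhibitor of the kinases JAK1 and JAK2, at 0, 0.0006, 0.016, 0.4 or 10 uM (3 or 4 libraries each). Those doses follow the sample titles, and the description of the treatment names other figures for the low doses, so the middle of the dose scale is uncertain.

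Levels are log2 CPM (counts scaled to library size) as the authors normalized them by TMM. The lowest value of a library marks a count of 0, and it splits the libraries into 6 sets that were normalized separately. Tests are made only between libraries of a single set. These are the culture set of progenitors, monocytes and 4div cells (12 libraries, 34.4 to 49.0 M counts each), the brain set of in vitro macrophages, MLCs and microglia (27 libraries, 8.63 to 43.6 M), the sgRNA 1 set (11 libraries, 17.3 to 41.9 M), the sgRNA 2 set (8 libraries, 18.5 to 27.2 M) and the baricitinib set (33 libraries, 6.06 to 34.2 M). NTC macrophages replicate 2 (19.6 M) has a lowest value of its own, so it is shown in parentheses and not compared. Differences are log2 fold changes from limma, with standard errors (SE) and p-values adjusted over all genes of the fit. A gene passed where its adjusted p was below 0.05 and its log2 fold change at least 2 in size.

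Disease-associated microglia are a state that microglia take up around amyloid plaques, dying neurons and damaged myelin, in which homeostatic genes go down and genes for phagocytosis and lipid handling go up. TREM2 is a surface receptor for lipids and lipoproteins that signals through the adaptor TYROBP (DAP12), and part of the state depends on it. APOE carries lipids between cells, lipoprotein lipase (Lpl) releases fatty acids from lipoproteins, cystatin F (Cst7) restrains lysosomal cathepsins, Itgax encodes the integrin CD11c, AXL is a receptor for ligands that bridge to dying cells, and Spp1 encodes osteopontin, a secreted ligand of integrins and CD44.

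RefSeq promoter sequences (build GRCm38.p6, 250 bases before to 50 bases after the start) were at hand for 6 of the 8 genes, all but Tyrobp and Lpl. Those of Cst7 (chr2:150570165-150570464), Itgax (chr7:128129300-128129599) and Spp1 (chr5:104434861-104435160), all on the plus strand, are shown. These genes were higher together with Adar1 sgRNA 1 in the macrophages of the sgRNA 1 set. The baricitinib set does not repeat this: without drug, Spp1 lay lower with sgRNA 1 and only Lpl passed. Capitals mark GGAAGT or its reverse complement ACTTCC, the core bound by ETS factors such as PU.1, and TGANTCA, the AP-1 site.
Cst7: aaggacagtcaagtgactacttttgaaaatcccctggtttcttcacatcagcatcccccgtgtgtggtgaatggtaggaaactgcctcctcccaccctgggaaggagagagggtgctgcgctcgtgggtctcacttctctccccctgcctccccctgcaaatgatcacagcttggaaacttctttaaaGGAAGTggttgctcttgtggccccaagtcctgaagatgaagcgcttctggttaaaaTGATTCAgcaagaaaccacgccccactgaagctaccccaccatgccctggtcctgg
Itgax: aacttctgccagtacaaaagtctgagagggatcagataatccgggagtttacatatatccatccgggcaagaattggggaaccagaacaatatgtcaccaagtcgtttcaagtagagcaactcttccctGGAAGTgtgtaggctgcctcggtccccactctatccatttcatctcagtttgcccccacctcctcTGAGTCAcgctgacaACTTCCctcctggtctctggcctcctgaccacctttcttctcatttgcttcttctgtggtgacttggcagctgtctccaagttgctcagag
Spp1: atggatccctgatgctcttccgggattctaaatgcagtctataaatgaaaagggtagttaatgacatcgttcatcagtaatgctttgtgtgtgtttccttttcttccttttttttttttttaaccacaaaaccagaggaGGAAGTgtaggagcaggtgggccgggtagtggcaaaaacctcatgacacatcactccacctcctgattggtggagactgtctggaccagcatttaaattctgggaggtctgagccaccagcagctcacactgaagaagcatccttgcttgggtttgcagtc
GGAAGT was found at -62 in Cst7, at -121 (and ACTTCC at -41) in Itgax, and at -111 in Spp1, counted from the start site. TGANTCA was found at -6 in Cst7, at -56 in Itgax and at -9 in Trem2. The core of interferon response elements, GAAANNGAA, lay in the promoters of Spp1 and Apoe, at -156 and -122. On both strands, GGAAGT occurs in 23.8% of 32851 mouse promoters of 300 bases, TGANTCA in 7.81% and GAAANNGAA in 8.56%, against 3, 3 and 2 of the 6 members. The motifs and the genes shown were chosen after results were seen, and a match is a string of letters, not evidence of binding.

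Several libraries stand apart or go against their labels. Markers of progenitors (Kit, Cd34, Flt3, Mpo and Elane) summed to 6720, 13700 and 15600 CPM in BM progenitors, with Mpo the most abundant, but to 64.4, 28.8 and 2770 CPM in the libraries labelled ER-Hoxb8 progenitors. Macrophage markers (Csf1r, Emr1, Cd68, Mertk and Fcgr1) summed to 1870, 4030 and 431 CPM in those 3 libraries, against 125, 175 and 158 CPM in BM progenitors. The data thus go against the progenitor label for replicates 1 and 2, and replicate 2 also stands far above the others for 5 of the 8 genes. BMD macrophages replicate 3, whose library name differs in form from the other 2, held 1130 CPM of the monocyte gene F13a1, against 49.4 and 34.6 CPM. Microglia replicate 8 held 687 CPM of oligodendrocyte markers (17.1 to 61.1 in the other 8 libraries), 834 CPM of astrocyte markers (171 to 358) and 39.8 CPM of neuron markers (0.8 to 3.4). In microglia replicate 9, macrophage markers summed to 17900 CPM (Csf1r leading), against 2590 to 7100 CPM in the rest of its group.

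In the brain set, neutrophil markers (S100a8, S100a9, Ly6g, Ngp and Camp) summed to 6870, 4090, 28100, 31700, 30500 and 29600 CPM in the BMD MLCs, and to 735, 229, 314, 17600, 40400 and 3260 CPM in the ER-Hoxb8 MLCs. They reached 403 to 5740 CPM in microglia and 2.9 to 36.5 CPM in the macrophages in vitro, so that they move with the contrast of brain and culture. Monocyte markers summed to 559 to 1540 CPM in BMD MLCs, 224 to 7580 CPM in ER-Hoxb8 MLCs and 18.1 to 122 CPM in microglia. In culture they summed to 57.2, 39.7 and 1130 CPM in BMD macrophages and to 475, 2490 and 91.6 CPM in ER-Hoxb8 macrophages. ER-Hoxb8 MLCs replicate 6 was the library with 7580 CPM (Ccr2 leading), and it also held 848 CPM of NK and T cell markers (Gzma leading). Microglia markers summed to 827 CPM in that library, against 6030 to 9620 CPM in the other ER-Hoxb8 MLCs, so its markers go against the label. It was kept in the main fit. Border macrophage markers, led by Mrc1 in all brain libraries but ER-Hoxb8 MLCs replicate 6, summed to 1520 to 2320 CPM in BMD MLCs, 6.6 to 1030 CPM in ER-Hoxb8 MLCs and 10.7 to 115 CPM in microglia. The part of these cells in the results was not tested, and in bulk RNA fewer cells of a type cannot be told apart from less RNA per cell.

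The Adar transcript does not measure editing of the gene, so the label Adar1 KO is not judged by it here. Adar stood at 4.20, 3.42 and 4.28 in NTC progenitors and at 4.36, 4.23 and 4.24 in sgRNA 1 progenitors. In macrophages it stood at 5.73, (5.86) and 5.67 with NTC and at 6.96, 7.15 and 7.01 with sgRNA 1. With sgRNA 2 it was at 4.35, 4.56 and 4.36 in progenitors and between 6.99 and 7.03 in the 5 macrophage libraries. Those sgRNA 2 libraries have no NTC in their set.

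Under baricitinib, Adar in NTC macrophages was at 5.12, 4.94 and 4.69 without drug, 4.66, 5.04 and 4.81 at 0.0006 uM, 4.31, 4.58, 4.40 and 4.34 at 0.016 uM, 4.50, 4.22, 4.29 and 3.92 at 0.4 uM and 3.70, 3.64 and 3.22 at 10 uM. With sgRNA 1 it was at 7.42, 6.52 and 6.37, then 5.90, 5.94 and 6.21, then 6.25, 5.90 and 6.37, then 4.12, 7.38 and 4.21, and at 10 uM 1.55, 2.15, 2.91 and 2.03. The sgRNA 1 libraries thus lie above NTC up to 0.016 uM, overlap with it at 0.4 uM and lie below it at 10 uM.

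Tyrobp needs a warning of its own. The table puts it at the lowest value in 46 of 92 libraries and at 3 counts or fewer in 50, often with replicates of a group many log2 units apart, whereas Fcer1g, the gene of a related adaptor (chosen after values were seen), averaged at least 10.4 in every group of macrophages and brain cells. The other members were at 3 counts or fewer in no library, apart from Itgax in 2 and Axl in 1. The sizes of its fitted differences therefore have no meaning, its levels are given as listed, and Tyrobp appears in counts only because the rule includes it.

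The brain set asks how the genes differ between culture and brain, and between engrafted cells and microglia. Engrafted cells of both kinds held far more Apoe and far less Lpl than the cultured macrophages of their own origin. They also carried much more Spp1 and Axl than microglia did. Microglia differed from BMD macrophages by 0.53 for Apoe (SE 0.92, adjusted p = 0.671). From BMD macrophages to BMD MLCs, 5 of the 8 genes passed (Apoe and Tyrobp higher, Lpl, Itgax and Spp1 lower), where 15.9% of the 12518 genes tested did. From ER-Hoxb8 macrophages to ER-Hoxb8 MLCs, 4 passed (Apoe and Tyrobp higher, Trem2 and Lpl lower), with 19.3% of all genes. Against microglia, 3 genes passed in BMD MLCs (Apoe, Spp1 and Axl, all higher; 10.7% of all genes) and 5 in ER-Hoxb8 MLCs (Cst7, Itgax, Spp1 and Axl higher, Trem2 lower; 16.3%). Between the MLC groups, 2 passed (Cst7 higher in ER-Hoxb8 MLCs, Apoe lower), with 6.56% of all genes, and from BMD macrophages to microglia 5 passed (Tyrobp higher, Lpl, Itgax, Spp1 and Axl lower), with 23.4%. These comparisons share groups, so they are not independent of each other.

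**Figure D1:**
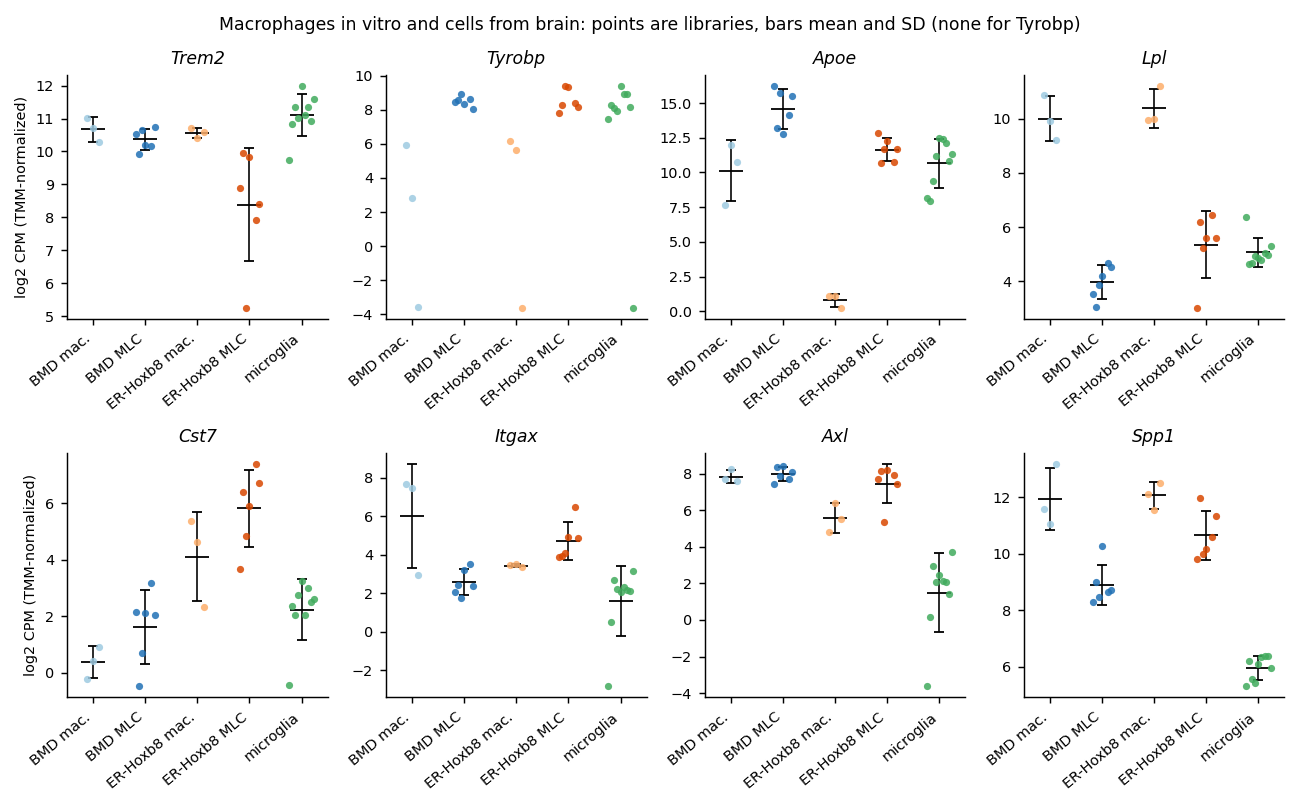
Levels of the 8 genes in the brain set, in log2 CPM, for in vitro macrophages, MLCs and microglia, with points for libraries and bars for mean and SD (none for Tyrobp). Apoe in ER-Hoxb8 macrophages lies between 0.25 and 1.09, under all other groups, and Axl in microglia lies at 3.73 or lower, under all other groups.

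Trem2, the receptor gene, stood at 11.02, 10.71 and 10.29 in BMD macrophages, 10.70, 10.41 and 10.60 in ER-Hoxb8 macrophages, 9.93 to 10.73 (median 10.36) in BMD MLCs and 9.74 to 12 (median 11.12) in microglia. These 4 groups overlap. ER-Hoxb8 MLCs were lower and wider apart, at 9.95, 9.83, 7.93, 8.88, 8.41 and 5.25 for replicates 1 to 6, with replicate 6, the one rich in monocyte and NK cell markers, lowest. Trem2 in them was lower than in ER-Hoxb8 macrophages (log2 fold change -2.19, SE 0.62, adjusted p = 0.0079) and was lower than in microglia (-2.73, SE 0.46, adjusted p = 3.58e-05). The first call ends without replicate 6 (-1.57), with library weights (-1.77), with replicates as blocks (-1.89) and in the GFPHox libraries alone (-1.33), where the second falls short as well (-1.87). Against BMD MLCs the log2 difference was -1.99 (SE 0.50, adjusted p = 0.00792), just short of the fold required. BMD MLCs and BMD macrophages differed by -0.31 (SE 0.62, adjusted p = 0.738). Macrophage markers move with the lower Trem2 of ER-Hoxb8 MLCs, summing to 5750, 4010, 3230, 2200, 1570 and 2110 CPM in replicates 1 to 6. They summed to 7550, 6230 and 9190 CPM in ER-Hoxb8 macrophages and to 2590 to 17900 CPM in microglia. Their share in the Trem2 differences was not tested.

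Tyrobp, the adaptor gene, was listed at 5.92, 2.84 and -3.57 in BMD macrophages and at 6.19, 5.66 and -3.62 in ER-Hoxb8 macrophages. In the brain it lay between 8.04 and 8.94 in BMD MLCs, between 7.80 and 9.39 in ER-Hoxb8 MLCs, and between 7.48 and 9.41 in 8 of the 9 microglia libraries, with replicate 9 at the lowest value of -3.62. All brain libraries but that one exceed all in vitro libraries. Its higher calls in brain rest on in vitro replicates that differ by more than 9 log2 units. The call for BMD MLCs ended without BMD macrophages replicate 3 (adjusted p = 0.22), that for ER-Hoxb8 MLCs without any of 4 single libraries, ER-Hoxb8 macrophages replicate 3 or ER-Hoxb8 MLCs replicate 2, 5 or 6 (adjusted p up to 0.387), and that for microglia without BMD macrophages replicate 2 or 3 or any of microglia replicates 1 to 7 (adjusted p up to 0.38).

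Apoe, the lipid carrier, spanned the widest range. It was listed at 7.69, 11.95 and 10.73 in BMD macrophages and at 1.07, 1.09 and 0.25 in ER-Hoxb8 macrophages. BMD MLCs held 12.76 to 16.25 (median 14.80), ER-Hoxb8 MLCs 10.68 to 12.82 (median 11.69) and microglia 7.92 to 12.51 (median 11.15). BMD MLCs were the highest group and overlap narrowly with ER-Hoxb8 MLCs, while ER-Hoxb8 macrophages lie apart from every other group. Apoe rose by 4.47 (SE 0.98, adjusted p = 0.00121) from BMD macrophages to BMD MLCs and by 10.85 (SE 0.98, adjusted p = 4.62e-09) from ER-Hoxb8 macrophages to ER-Hoxb8 MLCs. The difference of these differences was 6.38 (SE 1.38, adjusted p = 0.00771), the only one of the 8 to pass that interaction, which 2.48% of all genes passed. With library weights it was 3.60 (adjusted p = 0.0396). Against microglia, Apoe was 3.94 higher in BMD MLCs (SE 0.73, adjusted p = 0.000214), and in ER-Hoxb8 MLCs the log2 difference was 1.00 (SE 0.73, adjusted p = 0.313). ER-Hoxb8 MLCs lay below BMD MLCs by -2.95 (SE 0.80, adjusted p = 0.0126), a call that the WTHox libraries alone do not give (-2.53, adjusted p = 0.0883).

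In the fit of the 6 in vitro macrophage libraries alone, Apoe was the only one of the 8 to pass between ER-Hoxb8 and BMD macrophages, lower by -9.32 (SE 1.00, adjusted p = 0.0108), where 1.47% of 10764 genes passed. Every ER-Hoxb8 library was more than 6 log2 units under every BMD library. The large difference still depends on the small number of libraries for its call, since the adjusted p was 0.0817 without BMD macrophages replicate 2, 0.0712 without replicate 3 and 0.101 with replicates as blocks. Cst7 (3.73, SE 0.81, adjusted p = 0.096), Axl (-2.25, SE 0.43, adjusted p = 0.0626) and Itgax (-2.59, SE 1.19, adjusted p = 0.446) differed by more than the fold required without reaching the adjusted p.

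Lpl, the lipase, was high in culture and low in the brain. Levels were 10.89, 9.92 and 9.23 in BMD macrophages and 9.96, 9.98 and 11.23 in ER-Hoxb8 macrophages, against 3.03 to 4.66 (median 4.03) in BMD MLCs, 3.01 to 6.46 (median 5.60) in ER-Hoxb8 MLCs and 4.65 to 6.39 (median 4.94) in microglia. No brain library comes near a cultured one, and the 3 brain groups overlap. Lpl fell by 6.05 from BMD macrophages to BMD MLCs (SE 0.54, adjusted p = 1.17e-08) and by 5.04 from ER-Hoxb8 macrophages to ER-Hoxb8 MLCs (SE 0.54, adjusted p = 9.4e-08). Microglia lay below BMD macrophages by -4.95 (SE 0.51, adjusted p = 2.54e-08).

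Cst7, the cystatin, set the ER-Hoxb8 MLCs apart from the other brain cells. It was at -0.20, 0.41 and 0.92 in BMD macrophages and at 5.37, 4.61 and 2.33 in ER-Hoxb8 macrophages. ER-Hoxb8 MLCs held 3.66 to 7.38 (median 6.15), BMD MLCs -0.47 to 3.17 (median 2.08) and microglia -0.44 to 3.24 (median 2.49). All 6 ER-Hoxb8 MLC libraries exceeded all BMD MLC and microglia libraries. Cst7 was 4.19 higher in ER-Hoxb8 than in BMD MLCs (SE 0.68, adjusted p = 9.64e-05) and 3.58 higher than in microglia (SE 0.62, adjusted p = 5.15e-05). Its steps from culture to brain were 1.24 for marrow cells (SE 0.83, adjusted p = 0.266) and 1.70 for ER-Hoxb8 cells (SE 0.83, adjusted p = 0.111). NK and T cell markers also differ between the brain groups. They summed to 50.4, 31.8, 188, 8.1, 33.8 and 848 CPM in ER-Hoxb8 MLCs replicates 1 to 6. BMD MLCs held 5.1 to 17.4 CPM of them, microglia 0.0 to 21.7 CPM and ER-Hoxb8 macrophages 0.3 to 1.3 CPM. The share of such cells in the Cst7 differences was not tested.

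Itgax, the CD11c gene, was at 7.68, 7.46 and 2.92 in BMD macrophages and at 3.44, 3.49 and 3.34 in ER-Hoxb8 macrophages. BMD MLCs held 1.77 to 3.54 (median 2.41), ER-Hoxb8 MLCs 3.90 to 6.48 (median 4.48) and microglia -2.83 to 3.15 (median 2.16). The ER-Hoxb8 MLCs lie above ER-Hoxb8 macrophages, BMD MLCs and microglia without overlap, and BMD macrophages replicate 3 falls among the brain cells. Itgax was 3.11 higher in ER-Hoxb8 MLCs than in microglia (SE 0.74, adjusted p = 0.00158). It fell by 3.45 from BMD macrophages to BMD MLCs (SE 0.99, adjusted p = 0.00971), with an adjusted p of 0.0941 without BMD macrophages replicate 1 and 0.0763 without replicate 2. The step from ER-Hoxb8 macrophages to ER-Hoxb8 MLCs was 1.27 (SE 0.99, adjusted p = 0.327), and the interaction of 4.72 (SE 1.40, adjusted p = 0.0605) did not pass.

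Axl, the receptor for bridged dying cells, separated microglia from everything else. Microglia ranged from the lowest value of -3.62 to 3.73 (median 2.08). BMD macrophages were at 7.68, 8.25 and 7.58, ER-Hoxb8 macrophages at 4.82, 6.42 and 5.51, BMD MLCs at 7.46 to 8.41 (median 7.97) and ER-Hoxb8 MLCs at 5.36 to 8.21 (median 7.83). Not a single microglia library reached the lowest of the others, and the other 4 groups overlap with their neighbours in level. Axl was 6.49 higher in BMD MLCs than in microglia (SE 0.70, adjusted p = 8.39e-08) and 5.98 higher in ER-Hoxb8 MLCs (SE 0.70, adjusted p = 1.53e-07). Its steps from culture to brain were 0.14 (SE 0.94, adjusted p = 0.929) for marrow cells and 1.88 (SE 0.94, adjusted p = 0.12) for ER-Hoxb8 cells.

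Spp1, the osteopontin gene, was graded over the groups. Levels were 11.59, 11.06 and 13.18 in BMD macrophages, 12.13, 11.56 and 12.51 in ER-Hoxb8 macrophages, 9.83 to 11.99 (median 10.38) in ER-Hoxb8 MLCs, 8.29 to 10.27 (median 8.69) in BMD MLCs and 5.32 to 6.38 (median 6.11) in microglia. In that order neighbouring groups overlap, except that every MLC library lies above every microglia library. Spp1 was 2.94 higher in BMD MLCs than in microglia (SE 0.35, adjusted p = 3.93e-07) and 4.69 higher in ER-Hoxb8 MLCs (SE 0.35, adjusted p = 3.48e-11). It fell by 3.04 from BMD macrophages to BMD MLCs (SE 0.47, adjusted p = 3.04e-05), while the step for ER-Hoxb8 cells was -1.41 (SE 0.47, adjusted p = 0.0213) and short of the fold required. The difference between these steps did not pass (adjusted p = 0.205).

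**Figure D2:**
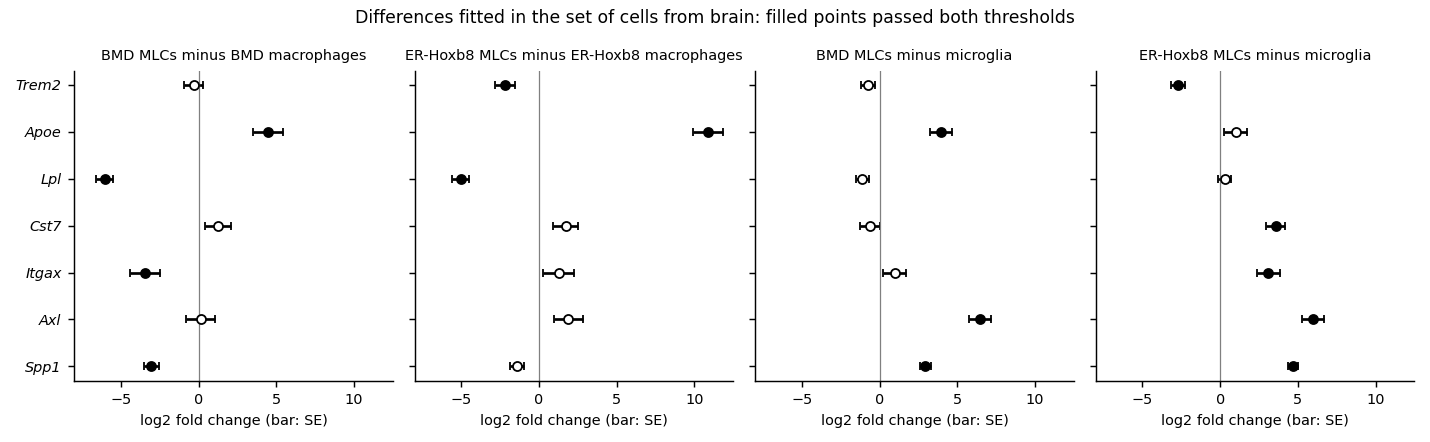
Log2 fold changes of 7 genes (without Tyrobp) in 4 comparisons of the brain set, with SE and with filled points where both thresholds were passed. Apoe lies at 4.47 and 10.85 for the steps from culture to brain, Lpl at -6.05 and -5.04, and Axl at 6.49 and 5.98 against microglia.

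The wider lists place the 8 genes among their partners. Of 24 further disease-associated microglia genes, 23 were tested in the brain set, and from BMD macrophages to BMD MLCs 1 rose and 9 fell, with a median log2 fold change of -1.17 beside -0.01 for all genes, of which 15.9% passed. Among them were Fabp5 (-6.28), a fatty acid carrier, and Lgals3 (-6.09), a galectin, and Gpnmb, a lysosomal glycoprotein, averaged 12.12 in BMD macrophages and -3.40 in BMD MLCs. For ER-Hoxb8 cells 3 rose and 10 fell (median -1.77 beside -0.15 for all genes, of which 19.3% passed), Igf1 (-6.73), Fabp5 (-7.45) and Lgals3 (-4.91) downward and B2m (2.91) upward. Of 14 homeostatic microglia genes, 10 rose and 0 fell in BMD MLCs (median 4.91) and 9 rose and 0 fell in ER-Hoxb8 MLCs (median 3.49), P2ry12 among them (9.50 in BMD MLCs).

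Against microglia the same lists read differently. In BMD MLCs 4 of the 23 disease-associated genes were higher and 0 lower (median 0.37 beside 0.06 for all genes, of which 10.7% passed), namely the pattern receptor Clec7a (4.82), Lyz2 (3.85), Lgals3 (3.52) and Igf1 (2.20). In ER-Hoxb8 MLCs 5 were higher and 3 lower (median 0.59 beside -0.10 for all genes, of which 16.3% passed), Lgals3 at 4.03, Cd52 at 3.55 and Ank at -4.54. Homeostatic genes were lower for 8 of 14 in BMD MLCs and 13 of 14 in ER-Hoxb8 MLCs, with 0 higher in either. Sall1, a transcription factor of microglia, was the lowest of these at -8.80 and -7.69.

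For the partners of single members, the shares of all genes that passed were 15.9% and 19.3% from culture to brain, for marrow and ER-Hoxb8 cells, and 10.7% and 16.3% against microglia, for BMD and ER-Hoxb8 MLCs. Whether the counts in these short lists differ from such shares was not tested. Of 12 tested lipoprotein partners of Apoe and Lpl, 5 rose and 3 fell from BMD macrophages to BMD MLCs, with the cholesterol exporter Abca1 at 5.90 and Apoc1 at 5.27. For ER-Hoxb8 cells 2 rose (Apoc1 4.87, Abca1 3.56) and 5 fell. Compared with microglia, 4 were higher and 0 lower in either MLC group, including Apoc2 (4.60 in BMD MLCs and 6.00 in ER-Hoxb8 MLCs), the cofactor of lipoprotein lipase. Of 12 TREM2-TYROBP signalling partners, 2 were higher than in microglia in BMD MLCs and 3 in ER-Hoxb8 MLCs, with 0 lower, numbers near those shares. Ms4a4a, a gene near the human locus tied to soluble TREM2, was at 7.98 in the first and 5.91 in the second.

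For the surface members, the shares of all genes were again 10.7% in BMD MLCs and 16.3% in ER-Hoxb8 MLCs, against microglia. Of 3 tested TAM genes, Pros1 (-4.39), whose product protein S binds MERTK and TYRO3, and Gas6 (-2.41), the ligand gene of AXL, were lower in ER-Hoxb8 MLCs than in microglia, and Pros1 alone passed in BMD MLCs (-2.55). Itgal, an integrin alpha chain that shares the beta chain of CD11c, was 3.48 higher in BMD MLCs and 5.11 higher in ER-Hoxb8 MLCs, the only 1 of 4 integrin partners to pass. Of 7 osteopontin receptors, Cd44 (3.31 and 4.28) and Itga4 (4.34 and 4.37) were higher in BMD and ER-Hoxb8 MLCs, and Itgb3 was lower (-4.47 and -5.41), joined in ER-Hoxb8 MLCs by Itgb5 (-2.06). Of the 3 cathepsins restrained by cystatin F, Ctsc (2.77) was higher and Ctsl (-3.03) lower in ER-Hoxb8 MLCs than in microglia, and 0 passed in BMD MLCs.

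Across the 27 libraries of the brain set, the genes whose profiles were most like each member (Tyrobp left aside) were Slc46a1 for Trem2 (Pearson r = 0.923), Lipa, a lysosomal lipase gene, for Lpl (0.955), Lgals1 for Spp1 (0.949), Dnase1l1 for Axl (0.92), Bmyc for Apoe (0.9), Cd36 for Itgax (0.86) and Gbp6 for Cst7 (0.834). Libraries of a group share their cells, so the same r within groups tells how far group means carry these values. It was 0.896 for Slc46a1, 0.595 for Lipa, 0.231 for Lgals1, 0.774 for Dnase1l1, 0.764 for Bmyc, 0.687 for Cd36 and 0.383 for Gbp6. Among the members themselves, Itgax and Axl kept r = 0.70 over all libraries and 0.73 within groups. Microglia replicate 8 stands far below its group for both genes (-2.83 and -3.62), and its share in these values was not tested. Axl and Spp1 had 0.73 and 0.19, and Apoe and Lpl -0.76 and -0.39.

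The culture set holds the libraries labelled progenitors, monocytes and 4div cells. Macrophage markers in the 4div cells summed to 6390, 4170 and 3360 CPM. Spp1 was the member called most often there, low in BM progenitors, higher in BM monocytes and higher again in ER-Hoxb8 cells. From BM progenitors to BM monocytes, 1 of the 8 genes passed (Spp1, higher), where 6.84% of 12056 genes did. ER-Hoxb8 progenitors against BM progenitors gave 1 (Spp1, higher), with 15.3% of all genes. ER-Hoxb8 4div cells against BM monocytes gave 4 (Trem2, Lpl and Spp1 higher, Apoe lower), with 11.7%. Between ER-Hoxb8 4div cells and ER-Hoxb8 progenitors limma called 0 members and 0% of all genes, with 1129 genes at an unadjusted p below 0.05. That fit ignored replicate numbers, although residuals of same-numbered replicates correlated between these groups (r = 0.226, 0.372 and 0.427). The lack of calls is therefore not read as no difference.

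Markers of other cells move with these comparisons. Progenitor markers summed to 5050, 6110 and 7940 CPM in BM monocytes and to 34.8, 40.8 and 37.9 CPM in 4div cells, and neutrophil markers to 422, 8230 and 3770 CPM and to 39.4, 53.6 and 46.9 CPM. Monocyte markers summed to 12300, 10500 and 9910 CPM in BM monocytes and to 412, 2560 and 2000 CPM in 4div cells. Macrophage markers summed to 1370, 1310 and 1120 CPM in BM monocytes, below the 4div cells. Their share in the differences of the members was not tested.

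**Figure D3:**
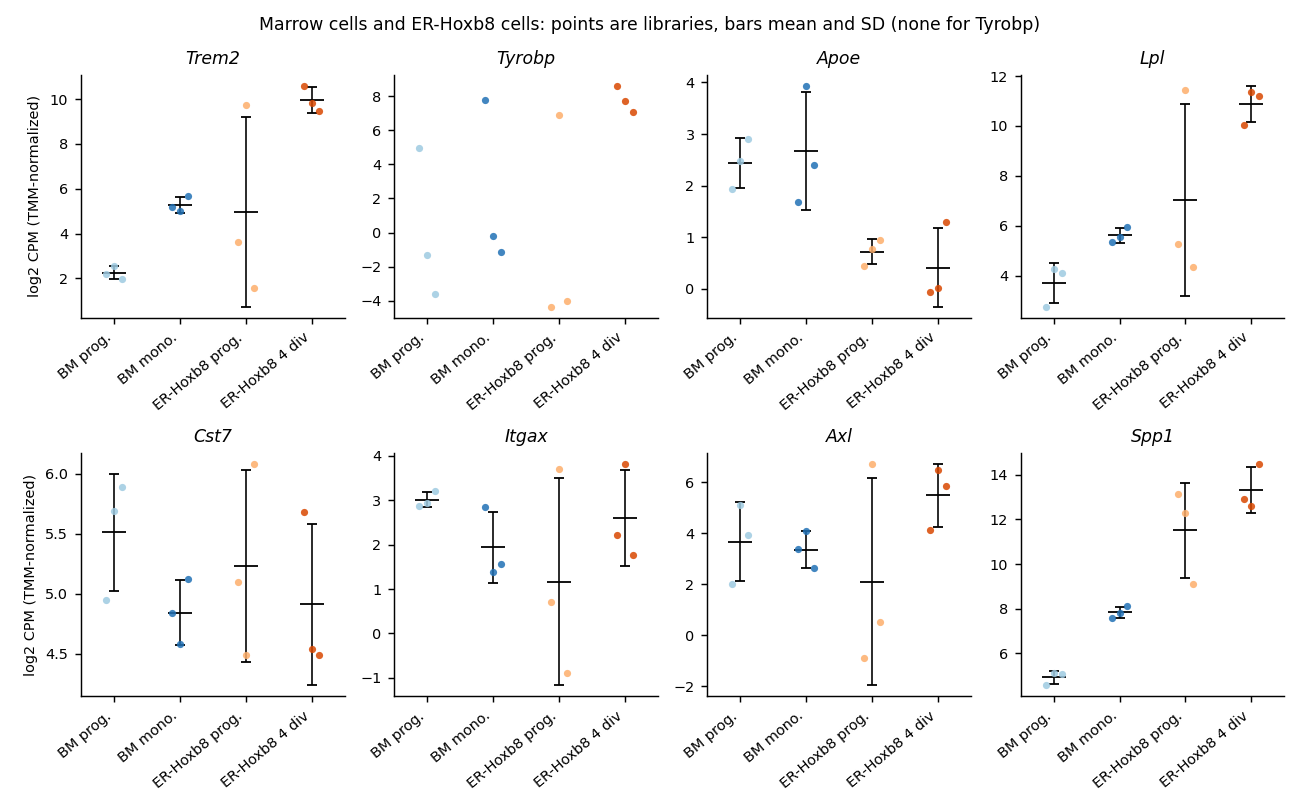
Levels of the 8 genes in the culture set, in log2 CPM, for BM progenitors, BM monocytes, ER-Hoxb8 progenitors and ER-Hoxb8 4div cells, with points for libraries and bars for mean and SD (none for Tyrobp). One ER-Hoxb8 progenitor library lies at 9.73 for Trem2 and 11.45 for Lpl, level with the 4div cells, and its 2 fellows lie at 3.61 and 1.59 and at 5.27 and 4.36.

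Trem2 was at 2.21, 2.56 and 1.99 in BM progenitors, 5.17, 4.99 and 5.67 in BM monocytes, 3.61, 9.73 and 1.59 in ER-Hoxb8 progenitors and 10.60, 9.82 and 9.47 in 4div cells. Lpl was at 2.75, 4.25 and 4.09, then 5.35, 5.56 and 5.94, then 5.27, 11.45 and 4.36, and then 10.03, 11.38 and 11.22 in the same groups. For both genes the ER-Hoxb8 progenitor of replicate 2 sits with the 4div cells. The 4div cells exceeded monocytes by 4.68 for Trem2 (SE 1.48, adjusted p = 0.0494) and by 5.26 for Lpl (SE 1.39, adjusted p = 0.022), with all 3 libraries above all 3. Leaving out any 1 of the 6 libraries ended the call for Trem2 (adjusted p up to 0.147), as did no filter on low values (0.0834) and a mean CPM above 5 (0.0565), and leaving out any but 4div replicate 1 ended that for Lpl (up to 0.0702).

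Replicate 2 of the ER-Hoxb8 progenitors decides the comparison with 4div cells. Without it, Trem2, Tyrobp, Lpl, Itgax and Axl all passed as higher in 4div cells, where 6.12% of 11980 genes then did. The calls of members, summed over all comparisons of the culture set, went from 6 to 14. Replicate 2 was singled out by its values in these same genes, so the calls without it are not read as tests. Replicate 1, whose markers also go against the progenitor label, was kept in that fit. Axl was at -0.91, 6.73 and 0.51 in ER-Hoxb8 progenitors and at 4.13, 6.48 and 5.86 in 4div cells, and Itgax at 0.71, 3.70 and -0.89 and at 2.22, 3.82 and 1.77. Tyrobp was listed at -4.34, 6.89 and -4.02 in the progenitors and at 8.61, 7.69 and 7.09 in the 4div cells. In each of these genes replicate 2 stands level with the 4div libraries and the other 2 progenitors stand below them.

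Apoe was low throughout, at 1.94, 2.47 and 2.91 in BM progenitors, 1.69, 3.94 and 2.39 in BM monocytes, 0.44, 0.77 and 0.95 in ER-Hoxb8 progenitors and -0.07, 0.02 and 1.29 in 4div cells. The 4div cells lie below the monocytes without overlap (log2 fold change -2.26, SE 0.59, adjusted p = 0.0213). That call ended without BM monocytes replicate 2 (-1.63), without 4div replicate 1 (adjusted p = 0.0853), without 4div replicate 2 (adjusted p = 0.0704), on the scale of log2(CPM + 1) (-1.68) and with quantile normalization (-1.76, adjusted p = 0.0693). Cst7 was alike in all 4 groups, between 4.49 and 6.08.

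Spp1 was at 4.58, 5.10 and 5.08 in BM progenitors, 7.59, 7.79 and 8.11 in BM monocytes, 13.15, 12.27 and 9.10 in ER-Hoxb8 progenitors and 12.90, 12.60 and 14.49 in 4div cells. Primary progenitors and monocytes do not overlap each other or the ER-Hoxb8 cells. Libraries labelled ER-Hoxb8 progenitors exceeded BM progenitors by 6.59 (SE 0.84, adjusted p = 0.000158). Their lowest value (9.10) was in replicate 3, the one with the most progenitor markers. The other ER-Hoxb8 progenitor libraries went the other way, with Spp1 at 13.15 beside 64.4 CPM of these markers and at 12.27 beside 28.8 CPM. Whether Spp1 depends on marker content was not tested. The 4div cells exceeded monocytes by 5.50 (SE 0.84, adjusted p = 0.000891). The step of 2.91 from progenitors to monocytes (SE 0.84, adjusted p = 0.0417) lost its call when any 1 of its 6 libraries was left out (adjusted p 0.0881 to 0.148), with no filter on low values (adjusted p = 0.0703) and with replicates as blocks (adjusted p = 0.0582).

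Of 22 tested disease-associated genes, ER-Hoxb8 progenitors had 7 higher and 0 lower than BM progenitors (median 1.85 beside -0.08 for all genes, of which 15.3% passed), Gpnmb at 6.52 and Igf1 at 6.17 among them. In 4div cells against monocytes again 7 were higher and 0 lower (median 1.45 beside -0.01 for all genes, of which 11.7% passed), with Gpnmb at 8.08 and Igf1 at 7.09. Of 12 lipoprotein partners 4 were higher and 0 lower in each, including Apoc2 (5.51 and 3.88). In BM monocytes against BM progenitors 0 of the 22 passed, where 6.84% of all genes did.

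The sgRNA sets ask what the Adar1 guides do before and after differentiation. In progenitors 0 of the 8 genes passed between sgRNA 1 and NTC by limma, where 0.254% of 11008 genes passed and 725 had an unadjusted p below 0.05. In macrophages 3 passed (Cst7, Itgax and Spp1, all higher with sgRNA 1), with 4.02% of all genes. From progenitors to macrophages 6 passed in NTC cells (Trem2, Tyrobp, Lpl, Spp1 and Axl higher, Cst7 lower), with 23.5% of all genes, and 6 in sgRNA 1 cells (Trem2, Tyrobp, Lpl, Itgax, Spp1 and Axl, all higher), with 21.6%. Tyrobp and Itgax met the filter of this set through the macrophages alone. The calls of Tyrobp in it, and that of Itgax from progenitors to macrophages, are not read as tests. The interaction of guide and stage passed for 2 (Cst7 and Spp1), with 4.19% of all genes. In the sgRNA 2 set, which has no NTC, 5 of 7 tested genes rose from progenitors to macrophages (Trem2, Lpl, Itgax, Spp1 and Axl), with 19.3% of 10698 genes.

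Cell-type markers move with the macrophage contrast of the guides. Macrophage markers summed to 8800 and 7830 CPM in NTC macrophages replicates 1 and 3 and to 4940, 5530 and 5290 CPM with sgRNA 1. Border macrophage markers, nearly all Mrc1, summed to 770 and 631 CPM against 78.9, 59.8 and 90.5 CPM, and neutrophil markers, nearly all S100a8, to 15.4 and 10.7 CPM against 69.0, 82.6 and 80.6 CPM. The share of such differences in the results for the members was not tested.

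**Figure D4:**
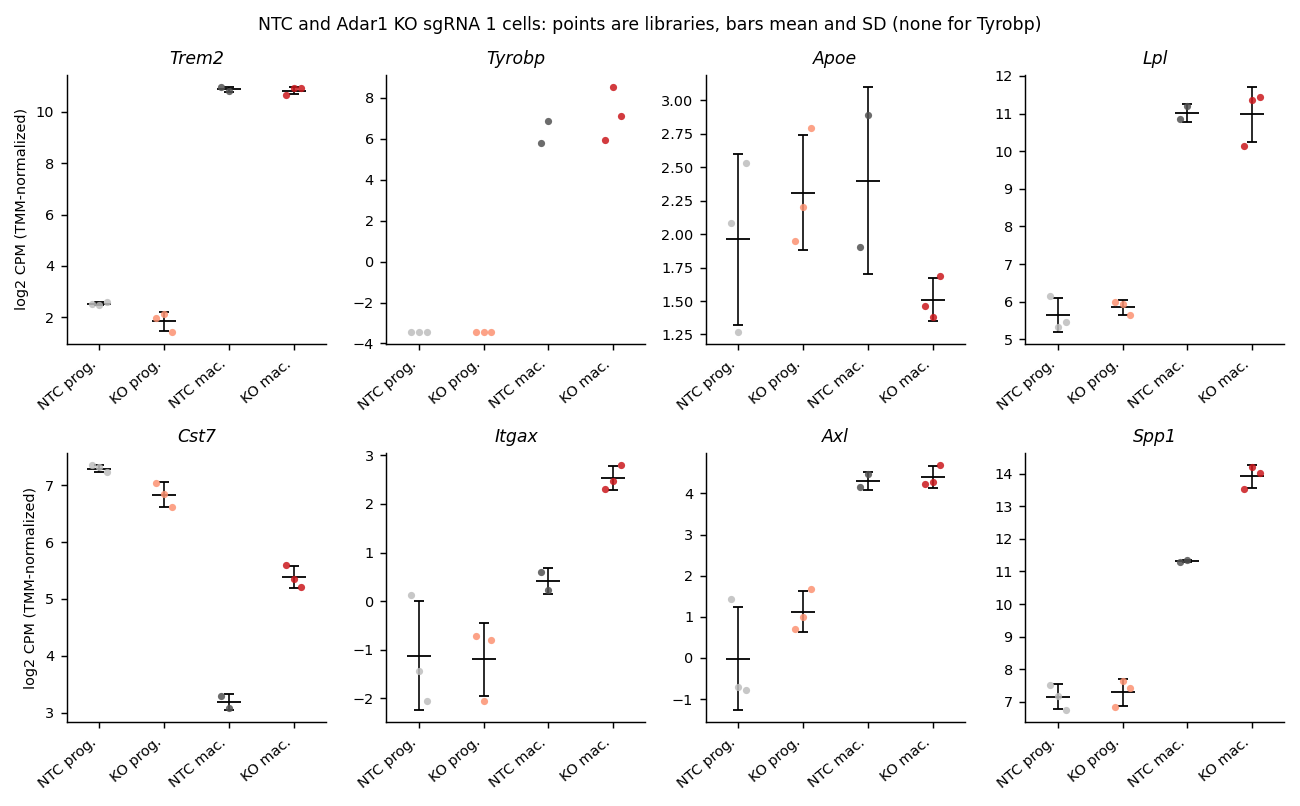
Levels of the 8 genes in the sgRNA 1 set, in log2 CPM, for NTC and sgRNA 1 progenitors and macrophages, without NTC macrophages replicate 2, with points for libraries and bars for mean and SD (none for Tyrobp). Cst7 in macrophages lies at 3.29 and 3.09 with NTC and at 5.59, 5.35 and 5.21 with sgRNA 1.

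Cst7 was at 7.35, 7.31 and 7.22 in NTC progenitors and 7.04, 6.85 and 6.61 in sgRNA 1 progenitors. In macrophages it was at 3.29, (2.89) and 3.09 with NTC and at 5.59, 5.35 and 5.21 with sgRNA 1. The macrophage groups are wide apart, with sgRNA 1 above, and in progenitors sgRNA 1 lies slightly below. The macrophage difference was 2.19 (SE 0.15, adjusted p = 1.89e-06). Cst7 fell by 4.10 from NTC progenitors to NTC macrophages (SE 0.15, adjusted p = 8.55e-10), whereas the step with sgRNA 1 was -1.45 (SE 0.13, adjusted p = 1.61e-06), an interaction of 2.66 (SE 0.20, adjusted p = 1.17e-05).

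Spp1 was at 7.51, 7.18 and 6.74 in NTC progenitors and 6.83, 7.64 and 7.41 in sgRNA 1 progenitors, which overlap. In macrophages it was at 11.30, (11.40) and 11.35 with NTC and at 13.54, 14.22 and 14.02 with sgRNA 1. All sgRNA 1 macrophages exceed the NTC macrophages, by 2.60 (SE 0.27, adjusted p = 3.96e-05), and the interaction was 2.45 (SE 0.36, adjusted p = 0.00092). Under quantile normalization both fell short of the fold required, at 1.5 and 1.32, in a fit that moved the median of all genes from 0.05 to -0.06 for the macrophage comparison and from 0.08 to -0.04 for the interaction.

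Itgax was at 0.61, (0.54) and 0.23 in NTC macrophages and at 2.31, 2.47 and 2.80 in sgRNA 1 macrophages, again without overlap. Its difference of 2.11 (SE 0.59, adjusted p = 0.0266) rests on few libraries. The adjusted p was 0.0845 without NTC macrophages replicate 1, 0.119 without replicate 3, 0.0658 without sgRNA 1 macrophages replicate 2, 0.0695 without replicate 3 and 0.0702 with no filter on low values, and the log2 fold change was 1.57 on the scale of log2(CPM + 1). The interaction for Itgax was 2.18 (SE 0.80, adjusted p = 0.0953). In progenitors Itgax lay between -2.05 and 0.12 in all 6 libraries.

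The receptor and lipase genes rose with differentiation whatever the guide, and in macrophages the guides hardly differed. Trem2 was at 2.54, 2.48 and 2.60 in NTC progenitors, 1.98, 2.12 and 1.44 in sgRNA 1 progenitors, 10.95, (10.85) and 10.80 in NTC macrophages and 10.65, 10.91 and 10.91 in sgRNA 1 macrophages. Its step was 8.34 with NTC (SE 0.18, adjusted p = 2.46e-11) and 8.98 with sgRNA 1 (SE 0.16, adjusted p = 8.78e-12), and the macrophage groups, which overlap, differed by -0.05 (SE 0.18, adjusted p = 0.874). In progenitors Trem2 lay lower with sgRNA 1, without overlap, by -0.69 (SE 0.16, adjusted p = 0.091). Lpl stood between 5.33 and 6.16 in the progenitors, at 10.85, (11.25) and 11.19 in NTC macrophages and at 10.15, 11.35 and 11.45 in sgRNA 1 macrophages. Its step was 5.37 with NTC (SE 0.35, adjusted p = 9.59e-08), and the macrophage groups differed by -0.04 (SE 0.35, adjusted p = 0.956).

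Axl was between -0.78 and 1.68 in the progenitors, at 4.16, (4.85) and 4.47 in NTC macrophages and at 4.22, 4.28 and 4.69 in sgRNA 1 macrophages, so that it too rose with differentiation and the macrophage groups overlap. Apoe was at 1.90, (6.09) and 2.89 in NTC macrophages and at 1.46, 1.38 and 1.69 in sgRNA 1 macrophages, a log2 difference of -0.89 (SE 0.40, adjusted p = 0.138). Tyrobp was at the lowest value in every progenitor, at 5.81, (0.99) and 6.89 in NTC macrophages and at 5.94, 8.54 and 7.13 in sgRNA 1 macrophages.

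With sgRNA 2 the genes that rose were the ones that rose with sgRNA 1, Tyrobp aside, which stood at the lowest value in all 8 libraries and was not tested. Trem2 was at 3.66, 3.34 and 3.21 in progenitors and at 10.80, 10.72, 10.79, 10.70 and 10.80 in macrophages, a rise of 7.36 (SE 0.09, adjusted p = 5.66e-13). Spp1 was at 7.59, 7.66 and 7.50 and then at 13.26, 13.35, 13.30, 13.23 and 13.43, a rise of 5.73 (SE 0.05, adjusted p = 1.53e-13). Both genes were far apart between stages and close within them. Lpl rose by 4.81 (SE 0.06, adjusted p = 7.61e-13), Axl by 5.10 (SE 0.19, adjusted p = 1.92e-09) and Itgax by 4.91 (SE 0.44, adjusted p = 1.95e-06), or by 2.64 on the scale of log2(CPM + 1). Itgax lay between -3.56 and -1.35 in these progenitors and met the filter through the macrophages alone. Its rise is therefore not read as a test. The Cst7 step was -0.76 (SE 0.08, adjusted p = 5.1e-06), from 6.13, 6.11 and 6.21 to 5.52, 5.33, 5.44, 5.19 and 5.45. The sgRNA 2 libraries share no set with NTC, so the guide itself was not tested there.

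Around the members, 17 of 22 disease-associated genes rose and 0 fell from NTC progenitors to NTC macrophages (median 4.24 beside -0.08 for all genes, of which 23.5% passed), the lysozyme gene Lyz2 by 7.50 and Lgals3 by 6.92. Between the macrophage groups 1 of the 22 passed, Csf1 (2.05), a growth factor of macrophages, with a list median of -0.02 beside 0.05 for all genes, of which 4.02% passed. Of 12 lipoprotein partners tested, 0 were higher and 3 lower with sgRNA 1 (median -0.24), namely Abca1 (-3.46), Apoc1 (-3.33) and Apoc2 (-3.05). Among TREM2-TYROBP partners Ms4a6d was higher (2.88), 1 of 11 tested.

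The baricitinib set repeats the comparison of sgRNA 1 and NTC macrophages at each dose and asks whether a JAK inhibitor moves the genes. Tyrobp aside, Lpl was the only member to pass between the guides, with sgRNA 1 below NTC. Levels of Cst7 lay above NTC at every dose, and those of Spp1 below it up to 0.016 uM, but neither gene reached the fold required. Lpl passed at 0 uM (1 of the 8 genes; 3.87% of 11152 genes), at 0.0006 uM (1; 5.00%) and, beside Tyrobp, at 10 uM (2; 3.14%). At 0.016 uM (5.12% of all genes) and at 0.4 uM (1.78%) limma called 0 of the 8, while 4626 and 3177 genes had an unadjusted p below 0.05.

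Doses were also set against none within each guide. In NTC cells limma called 0 members at 0.0006 uM, 0.016 uM and 0.4 uM, as it called 0% of all genes, with 345, 434 and 598 genes at an unadjusted p below 0.05, and 0 members at 10 uM, where 0.834% of all genes passed and 3169 had an unadjusted p below 0.05. In sgRNA 1 cells it called 0 members at 0.0006 uM (0.0628% of all genes; 1815 unadjusted), 0 at 0.016 uM (0.152%; 2390 unadjusted) and 0 at 0.4 uM (1.93%; 4124 unadjusted). At 10 uM in sgRNA 1 cells 3 passed, Lpl and Axl lower and Tyrobp higher (not read as a test, since it has no spread in the other groups), with 14.7% of all genes. The interaction of guide and dose passed for 1 member at 10 uM (Tyrobp; 7.11% of all genes) and for 0 at 0.4 uM (0.681%; 2196 unadjusted). All doses share the libraries without drug.

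Markers also move with the doses of 0.4 and 10 uM. With sgRNA 1, monocyte markers at 0.4 uM summed to 2410, 1890 and 2030 CPM and neutrophil markers, nearly all S100a8, to 245, 76.3 and 325 CPM, the latter against 64.9, 67.4 and 54.0 CPM without drug. Macrophage markers with sgRNA 1 summed to 4780, 4810 and 5080 CPM without drug and to 3100, 2630, 2540 and 2770 CPM at 10 uM, and with NTC to 4670, 4690 and 4770 CPM and then 3760, 4080 and 4040 CPM. Progenitor markers, led by Cd34, summed to 1.6, 2.2 and 3.1 CPM with sgRNA 1 without drug and to between 11.1 and 14.4 CPM at 10 uM. Monocyte markers summed to 655, 626 and 690 CPM and then to 2290, 1710, 2170 and 2140 CPM with sgRNA 1, and to 1110, 1400 and 1310 CPM and then 2320, 2160 and 2090 CPM with NTC. Their share in the differences of Lpl, Axl, Spp1 and Itgax was not tested.

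**Figure D5:**
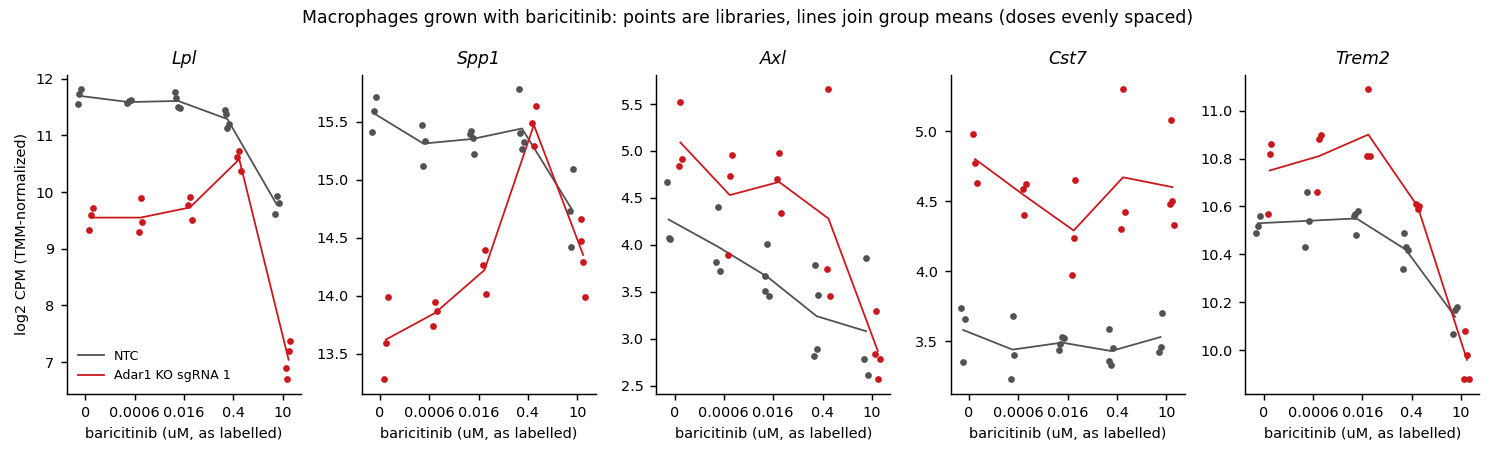
Levels of Lpl, Spp1, Axl, Cst7 and Trem2 in NTC and sgRNA 1 macrophages by baricitinib dose, in log2 CPM, with doses evenly spaced rather than to scale, points for libraries and lines through group means. Spp1 with sgRNA 1 goes from 13.28, 13.59 and 13.99 without drug to 15.49, 15.29 and 15.63 at 0.4 uM.

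Lpl in NTC macrophages was at 11.55, 11.73 and 11.82 without drug, 11.57, 11.60 and 11.62 at 0.0006 uM, 11.67, 11.51, 11.48 and 11.76 at 0.016 uM, 11.38, 11.14, 11.20 and 11.45 at 0.4 uM and 9.62, 9.93 and 9.81 at 10 uM. With sgRNA 1 it was at 9.33, 9.59 and 9.72, then 9.29, 9.90 and 9.47, then 9.77, 9.91 and 9.51, then 10.62, 10.72 and 10.38, and at 10 uM 6.70, 7.19, 7.37 and 6.89. At every dose all sgRNA 1 libraries lie below all NTC libraries, with the narrowest gap at 0.4 uM. The difference was -2.15 at 0 uM (SE 0.16, adjusted p = 4.24e-11), -2.04 at 0.0006 uM (SE 0.16, adjusted p = 1.28e-10), -1.88 at 0.016 uM (SE 0.15, adjusted p = 1.39e-10), -0.72 at 0.4 uM (SE 0.15, adjusted p = 0.00146) and -2.75 at 10 uM (SE 0.15, adjusted p = 6.49e-14). The call at 0.0006 uM ended without sgRNA 1 replicate 1 (-1.91) or 3 (-1.999), and that at 0 uM under quantile normalization (-1.99).

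From 0 to 10 uM, Lpl fell by 2.51 with sgRNA 1 (SE 0.15, adjusted p = 5.65e-14), and the step in NTC cells was -1.92 (SE 0.16, adjusted p = 4.84e-09), just under the fold required. The interaction at 10 uM was -0.59 (SE 0.21, adjusted p = 0.0294). At 0.4 uM Lpl was 1.03 above no drug with sgRNA 1 (SE 0.16, adjusted p = 1.91e-05), and the interaction was 1.44 (SE 0.21, adjusted p = 9.06e-05). Both are below the fold required.

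Spp1 in NTC macrophages was at 15.41, 15.59 and 15.71 without drug, 15.47, 15.12 and 15.33 at 0.0006 uM, 15.42, 15.36, 15.22 and 15.39 at 0.016 uM, 15.40, 15.26, 15.32 and 15.78 at 0.4 uM and 14.73, 14.42 and 15.09 at 10 uM. With sgRNA 1 it was at 13.28, 13.59 and 13.99, then 13.74, 13.94 and 13.87, then 14.26, 14.39 and 14.01, then 15.49, 15.29 and 15.63, and at 10 uM 14.66, 14.29, 13.99 and 14.47. The guides are apart up to 0.016 uM and overlap at 0.4 and 10 uM. The difference was -1.95 at 0 uM (SE 0.18, adjusted p = 8.71e-09), -1.46 at 0.0006 uM, -1.13 at 0.016 uM, 0.03 at 0.4 uM (SE 0.17, adjusted p = 0.947) and -0.40 at 10 uM (SE 0.17, adjusted p = 0.063). With sgRNA 1, 0.4 uM exceeded no drug by 1.85 (SE 0.18, adjusted p = 3.35e-08), and the interaction was 1.98 (SE 0.25, adjusted p = 1.33e-05), just under the fold required.

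The sign of Spp1 between guides without drug is opposite in the 2 experiments, at 2.60 in the sgRNA 1 set and -1.95 in the baricitinib set. Lpl stood at -0.04 in the former and -2.15 in the latter, and Apoc1 and Abca1 went from -3.33 and -3.46 to 2.34 and 2.81. Cst7 was higher with sgRNA 1 in both, at 2.19 and 1.21. The sets were normalized apart and share no library, so these values stand side by side with no test of their difference.

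Cst7 lay between 3.23 and 3.74 in all 17 NTC libraries of the baricitinib set and between 3.97 and 5.30 in all 16 with sgRNA 1, without overlap. The differences were 1.21 (SE 0.21, adjusted p = 8.34e-05), 1.10, 0.79, 1.24 and 1.07 from the lowest dose to the highest, under the fold required at each. No dose moved Cst7 within a guide by a margin that passed.

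Trem2 was at 10.49, 10.52 and 10.56 in NTC cells without drug and 10.07, 10.17 and 10.18 at 10 uM. With sgRNA 1 it was at 10.57, 10.82 and 10.86 without drug and 10.08, 9.98, 9.88 and 9.88 at 10 uM. In both guides all libraries at 10 uM are below those without drug, by -0.39 for NTC (SE 0.09, adjusted p = 0.00471) and -0.79 for sgRNA 1 (SE 0.08, adjusted p = 3.36e-09), both far under the fold required. At the doses in between, Trem2 ranged from 10.34 to 11.09.

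Axl was at 4.67, 4.07 and 4.06 in NTC cells without drug and 2.78, 3.86 and 2.61 at 10 uM. With sgRNA 1 it was at 4.84, 5.52 and 4.91 without drug, 3.74, 5.66 and 3.45 at 0.4 uM and 3.29, 2.57, 2.78 and 2.84 at 10 uM. It fell by 2.22 from 0 to 10 uM with sgRNA 1 (SE 0.38, adjusted p = 1.19e-05), and the NTC step was -1.18 (SE 0.41, adjusted p = 0.0528). The interaction did not pass (adjusted p = 0.145). Replicate 2 at 0.4 uM stands apart from its fellows, and it does so for Adar too (7.38 beside 4.12 and 4.21).

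Itgax lay between 2.41 and 3.77 in the baricitinib set, apart from sgRNA 1 cells at 0.4 uM, which were at 4.34, 3.88 and 4.00. That is 0.74 above no drug (SE 0.26, adjusted p = 0.0347), with an interaction of 1.21 (SE 0.36, adjusted p = 0.0463). Apoe was low and scattered, from -1.10 to 2.64 over the 33 libraries, and no comparison of it passed. Tyrobp was at the lowest value of -2.78 in all libraries except the 4 with sgRNA 1 at 10 uM, which were listed at 4.94, 1.60, -2.14 and 0.56. It met the filter through those libraries alone, and its calls in this set are not read as tests.

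Most of the disease-associated genes that passed at 10 uM with sgRNA 1 fell. Of 22 disease-associated genes 1 rose and 9 fell there (median -1.29 beside 0.05 for all genes, of which 14.7% passed), Gpnmb by -6.43, Fabp5 by -4.57 and the cathepsin gene Ctsd by -4.39, while Ank rose (3.12). In NTC cells 0 rose and 2 fell at 10 uM, Gpnmb (-3.40) and Fabp5 (-2.12), with a median of -0.72, where 0.834% of all genes passed. Without drug, 3 of the 22 were higher with sgRNA 1 than with NTC, Csf1 (4.25), Cd83 (4.18) and B2m (2.10), and Ank was lower (-2.30), where 3.87% of all genes passed. The TAM ligand genes Pros1 (-2.36) and Gas6 (-2.04) were lower, 2 of 3 tested, and the lipoprotein partners Apoc4 (2.79), Abca1 (2.81) and Apoc1 (2.34) were higher, 3 of 12.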

How the data were processed

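The authors trimmed reads with fastp, quantified transcripts (Kallisto), brought them to gene level (tximport) and scaled libraries with the TMM method of edgeR. The deposited values are log2 CPM of 92 libraries. A prior count of 2 was taken to underlie them, CPM was recovered from a value and its library's lowest value, and depth was estimated from the step that a single count makes. This definition of depth was revised after values were seen. Each set of libraries with a common lowest value was fitted in limma 3.58.1 (R 4.3.3) with group means, a variance trend and Benjamini-Hochberg adjustment. Genes needed CPM above 1 in 3 libraries (6 in the brain set). Alternatives were log2(CPM + 1), no filter, mean CPM above 5, a fold limit of 1, quantile normalization, library weights, replicate blocks, library-name subsets and leaving out each replicate. Among comparisons with 3 or more pairs, replicate numbers tracked residuals only for ER-Hoxb8 4div cells with ER-Hoxb8 progenitors and sgRNA 1 with NTC progenitors. No member was called there in the fits without blocks. For sgRNA 1 with NTC macrophages there were only 2 pairs (r = 0.158 and 0.153). The 3 calls of that comparison were also made with replicate blocks. Named genes are the 8 members, genes of the lists and the 3 genes most like each member, any other being marked. Members and lists were chosen with earlier results of these data known. Other steps used Python 3.11.15, numpy 2.4.6 and pandas 2.3.3. Some results are withheld and not reported here.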

Additional observations from a re-analysis of the deposited data

Results flagged for a closer look

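Single libraries far from the rest of their group were sought in 56 combinations of gene and group with 4 to 10 libraries, and 9 were found, where chance gives about 1 in 20. Microglia replicate 8 accounts for 4 of them, lowest for Axl (-3.62), Cst7 (-0.44) and Itgax (-2.83) and highest for Lpl (6.39), and it also stands apart in markers of oligodendrocytes (687 CPM), astrocytes (834 CPM) and neurons (39.8 CPM). Microglia replicate 9 was lowest for Tyrobp (-3.62). ER-Hoxb8 MLCs replicate 6 was lowest for Axl (5.36) and replicate 4 for Lpl (3.01), BMD MLCs replicate 2 was highest for Spp1 (10.27), and NTC macrophages replicate 2 at 0.016 uM was lowest for Trem2 (10.48) in a group within 0.10 of each other.

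Differences between effects were tested by 32 interactions, of which 10 had an adjusted p below 0.05, with no limit on the fold. Among all genes the share at that rule was 3.28% for the step from culture to brain (1 of 8 members), 13.6% for progenitor to macrophage (2), 39.5% for 10 uM (4) and 4.76% for 0.4 uM (3). Apoe differed by 6.38 (adjusted p = 0.00771; 3.60 with library weights) between ER-Hoxb8 and marrow cells in the step from culture to brain. In the step from progenitor to macrophage, sgRNA 1 differed from NTC by 2.66 for Cst7 (adjusted p = 1.17e-05) and 2.45 for Spp1 (adjusted p = 0.00092). In the step from 0 to 10 uM baricitinib it differed by 1.56 for Spp1 (adjusted p = 2.62e-05), -0.41 for Trem2 (adjusted p = 0.00946), -0.59 for Lpl (adjusted p = 0.0294) and 4.02 for Tyrobp (adjusted p = 0.00904), the last not a valid test, since every other group of that set is at the lowest value. At 0.4 uM the values were 1.98 for Spp1 (adjusted p = 1.33e-05), 1.44 for Lpl (adjusted p = 9.06e-05) and 1.21 for Itgax (adjusted p = 0.0463).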

How the results depend on the processing

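The comparisons gave 62 calls of members. Of these, 40 were tested and called under every setting tried, 47 whichever single library was left out, and 0 changed direction. A call counts as lost in these numbers where a setting left the gene untested, as for Tyrobp in the baricitinib set. Among calls that could be tested, those lost were 2 of 62 on the scale of log2(CPM + 1), 5 with no filter on low values, 1 of 55 at a mean CPM above 5 (7 more were not tested), 4 with quantile normalization, 2 with library weights and 3 with replicate blocks. In the brain set, 3 of 25 were lost with GFPHox libraries alone, 3 with WTHox libraries alone and 0 without the YSWT libraries. The in vitro comparison of macrophages gave 1 call, against 3 with library weights, 0 with replicate blocks and 2 within the fit of all 5 groups of the brain set. The baricitinib set gave 8, against 5 at a mean CPM above 5, 24 at a fold limit of 1 and 5 without Tyrobp, an alternative chosen after seeing the data. Leaving out a library moved the count from 6 to between 2 and 14 in the culture set, from 1 to between 0 and 2 in vitro and from 8 to between 5 and 11 in the baricitinib set, where 5 was reached without sgRNA 1 replicate 1, 2 or 4 at 10 uM, as the calls of Tyrobp went. The ranges were 23 to 28 in the brain set (25 calls), 16 to 18 in the sgRNA 1 set (17 calls) and 5 to 5 in the sgRNA 2 set (5 calls). Where a single library remained in a group, it was assumed to vary like the other groups. Depth of 6.06 to 49.0 M counts limits what can be said of Itgax and Axl where they stand at 3 counts or fewer. Whether depth has a part in the low counts of Tyrobp was not tested. Apart from the smaller numbers of libraries or genes, the cause of these shifts was not tested.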

Other observations

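NTC macrophages replicate 2, normalized apart from all other libraries, held Apoe at 6.09, where replicates 1 and 3 held 1.90 and 2.89. Its Tyrobp was listed at 0.99, beside 5.81 and 6.89. Its other members, Trem2 (10.85), Lpl (11.25), Cst7 (2.89), Itgax (0.54), Axl (4.85) and Spp1 (11.40), were near those of the other replicates.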
